A study of Homo sapiens with 4 samples.

Results

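The 10 genes described here carry out iron storage (FTH1, FTL), release of stored iron (NCOA4), uptake (TFRC, STEAP3, SLC11A2), export (SLC40A1), haem breakdown (HMOX1) and the control of iron genes (IREB2, ACO1). They were picked by symbol, around the fall of FTH1 in the comparison below, and all 10 were found among the 23228 genes listed for each library. The libraries are bulk RNA sequencing of MDA-MB-231, a human cell line established from a triple-negative breast tumour, whose ALDEFLUOR-sorted stem-like cells were grown in MammoCult medium. Cells of both groups carried a stably expressed lentiviral short hairpin RNA (shRNA), a control shRNA in 2 libraries and an shRNA against KDM1A in 2 libraries. KDM1A, also called LSD1, is a histone demethylase. The labels give neither the shRNA's target sequence nor a rescue, so other effects of that shRNA cannot be told apart from loss of KDM1A. Both groups were run in duplicate, and the labels leave it unsaid whether duplicates were grown apart, so the spread behind every p-value may be technical.

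Iron enters most cells bound to transferrin, which the transferrin receptor carries into endosomes, where the metal is reduced and pumped into the cytosol. Surplus iron is held inside ferritin, a shell of heavy chains, which oxidize the metal, and light chains, which help it form a mineral core. Iron regulatory proteins bind a hairpin in messenger RNA, the iron responsive element, when iron is scarce. Bound upstream of the coding sequence the proteins block translation, as for ferritin and ferroportin, and bound downstream they protect the transferrin receptor message from decay. Read counts reflect RNA abundance and thus touch the second of these modes directly, but not the first.

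The hairpins are shown because they divide the members into both modes. The canonical transcripts of all 10 genes were searched for an unpaired C, 5 stem bases, the loop CAGTGN and 5 bases pairing with the stem (G-T pairs allowed). A match was found in 4 of the 10 members and in 1.31% of 19515 canonical protein-coding transcripts. Matches upstream of the coding sequence occurred in 0.0922% and downstream in 0.625% of those transcripts. In the sequences below, read in the sense of the transcript with T for U, the 6 capital letters mark the loop.
FTL, chr19:49468592-49468621, plus strand, 5' untranslated region: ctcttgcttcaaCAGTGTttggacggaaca
SLC40A1, chr2:190445386-190445415, minus strand, 5' untranslated region: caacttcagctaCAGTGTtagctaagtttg
TFRC site 1, chr3:195777849-195777878, minus strand, 3' untranslated region: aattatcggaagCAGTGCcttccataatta
TFRC site 2, chr3:195777445-195777474, minus strand, 3' untranslated region: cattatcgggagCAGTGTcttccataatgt
TFRC site 3, chr3:195777380-195777409, minus strand, 3' untranslated region: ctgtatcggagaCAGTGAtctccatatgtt
TFRC site 4, chr3:195777333-195777362, minus strand, 3' untranslated region: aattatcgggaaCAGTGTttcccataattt
Coordinates are GRCh37. FTH1 also matched in its 5' untranslated region, with the loop starting at base 45 of the transcript. TFRC was the only canonical protein-coding transcript with 3 or more matches. SLC11A2, STEAP3, NCOA4, HMOX1, IREB2 and ACO1 held no match to this strict form, which says nothing of looser hairpins.

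Gene reads per library ranged from 23902900 to 26923678. The targeted gene, KDM1A, was covered by 4660 (library 1) and 4059 (library 2) control reads, against 561 and 649 under its own shRNA, as the labels have it. The mesenchymal marker VIM was high in every library (1831 to 2142 CPM, the usual read count per library size after TMM scaling), and PGR had at most 1 read. ESR1 was close to absent, at 7 and 9 control reads against 0 and 1. ERBB2 was not absent, at 1834 and 1672 control reads against 2151 and 2384 after knockdown. The cadherin CDH1 had 175 and 149 control reads against 198 and 208. Of the aldehyde dehydrogenases behind ALDEFLUOR activity, ALDH1A1 was nearly absent (0 or 1 read per library). ALDH1A3 had 292 and 240 control reads against 99 and 134 after knockdown, 44.85% of control (log2 fold change -1.15, SE 0.13). Although CDKN2A is deleted in MDA-MB-231, both control libraries held CDKN2A reads (323 and 329, against 13 and 19 in the KDM1A shRNA libraries). Its 9p21 neighbours MTAP (271 and 256 against 15 and 14), KLHL9 (290 and 293 against 8 and 9) and CDKN2B (27 and 31 against 0 and 1) moved with it. The control libraries thus go against their label at 9p21, and both do, so no comparison without such libraries could be made. This difference follows the groups, so in the values below it cannot be told apart from the shRNA against KDM1A, and its part was not tested. Throughout, 'after knockdown' names the KDM1A shRNA libraries and not a cause.

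Ferritin heavy chain RNA was far lower in the KDM1A shRNA libraries, while light chain RNA was close to its control level. FTH1 (chromosome 11, 61727190 to 61735106, minus strand, GRCh37) stood at 1173 and 1203 CPM in control libraries 1 and 2 and at 401.7 and 401.3 CPM in KDM1A shRNA libraries 1 and 2. All control values lay above all knockdown values, and the gap was many times the spread within either group. Between the KDM1A shRNA libraries that spread was below what counting error alone gives on average, so it is no measure of precision. The mean fell from 1188 ± 21.1 to 402 ± 0.274 CPM (SD, n = 2 each), 33.8% of control, a log2 fold change of -1.57 (SE 0.03). By p-value it was 12 in order among the 7082 genes with a lower fitted level. This rank led to the choice of the gene family and is therefore given as a description, with no test. In bulk RNA, fewer cells of a kind and less RNA per cell cannot be told apart.

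FTL (chromosome 19, 49468566 to 49470136, plus strand), the ferritin light chain, stood at 994.2 and 1017 CPM in the controls and at 939.7 and 941.2 CPM after knockdown. The groups did not overlap, but the difference was small, with knockdown at 93.5% of control (log2 fold change -0.10, SE 0.03). With either KDM1A shRNA library left out FTL no longer passed the threshold, an edgeR adjusted p under 0.05, in the fit over all genes. The ratio of FTH1 to FTL reads within a library does not depend on scaling between libraries. It was 1.180 and 1.183 in the controls and 0.427 and 0.426 after knockdown. The 2 libraries of each group nearly coincided, more closely than counting error alone gives on average, so this closeness is no measure of precision. The mean ratio after knockdown was 0.361 of that in the controls. As FTH1 led to the choice of the family, the ratio is a description.

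**Figure D1:**
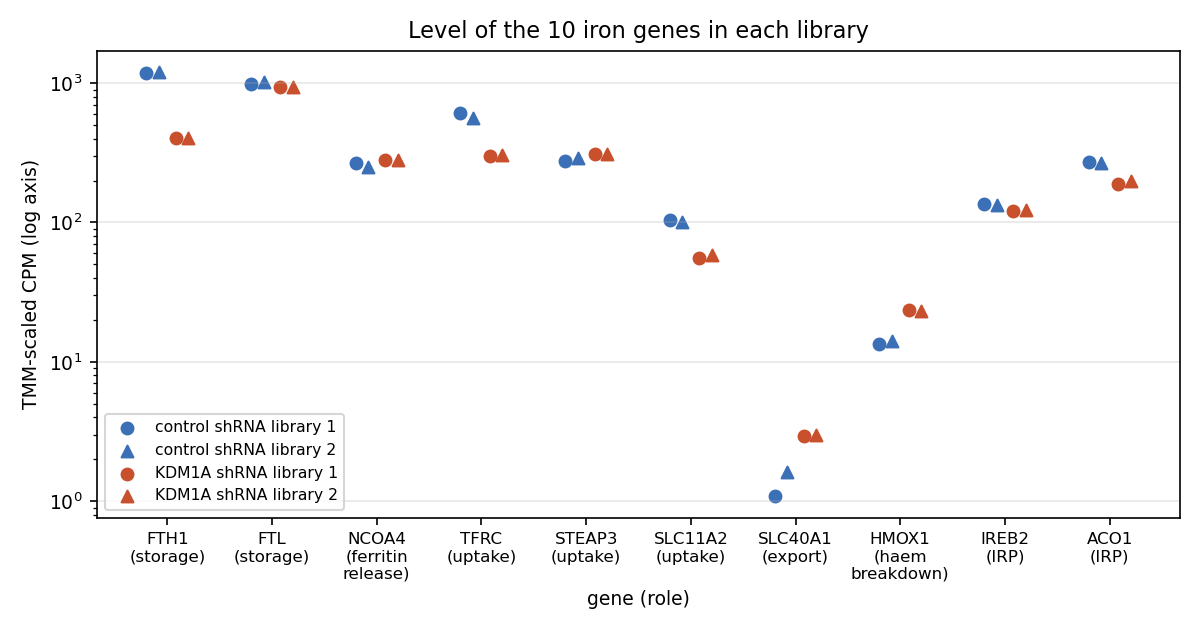
Level of the 10 iron genes in TMM-scaled CPM on a log axis, 1 point per library, blue for control shRNA and red for KDM1A shRNA, with circles for library 1 and triangles for library 2; IRP stands for iron regulatory protein. FTH1 drops from 1173 and 1203 to 401.7 and 401.3 CPM, while FTL beside it barely moves.

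Ferritin genes have many processed copies in the genome, and reads aligning to more than 1 place were set aside in the counting. The FTH1 transcript had 9 alignments elsewhere in GRCh37 with at least 95% identity over at least 100 bases, which together covered 76.5% of it. Alignments were not merged by place, so the number of separate loci may be smaller. At 98% identity 1 such alignment was left, covering 9.56% of the transcript. FTL matched 1 locus at 95%, covering 100% of the transcript, and 0 loci at 98%, ACO1 matched 1 at 95% over 1.37% of its length, and the other 7 members matched 0. The share of all counted alignments without a unique place was 32.2% and 31.9% for the controls, and 29.8% and 29.7% for the KDM1A shRNA libraries, with 95% Wilson intervals at most 0.0286 points wide that cover counting error only. Whether FTH1 reads were among those set aside was not tested. The pseudogene FTH1P3 was the 1 ferritin copy in the files with reads. It was given 77 and 68 control reads, and 17 and 30 from the knockdown. Its level was 33.0% of control, against 33.8% for FTH1, and true FTH1P3 reads cannot be told apart here from misplaced FTH1 reads. FTHL17, FTLP10 and the mitochondrial ferritin FTMT had 0 reads in every library, where up to 3 reads, or 0.111 to 0.126 CPM, could have gone unseen.

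NCOA4 (chromosome 10, 51565199 to 51590734), the receptor that carries ferritin to the lysosome for breakdown, stood at 266.8 and 251.3 CPM in the controls and at 280.6 and 282.5 CPM after knockdown. The knockdown values were slightly above the controls (108.7% of control, log2 fold change 0.12, SE 0.04), and the call was lost with upper-quartile scaling and without either KDM1A shRNA library. Its log2 fold change was 0.08 without control library 2 and 0.16 without control library 1. Because FTH1 fell and NCOA4 did not, the ratio of NCOA4 to FTH1 reads went from 0.227 and 0.209 to 0.699 and 0.704. That is 3.21 times its control mean, which largely restates the fall of FTH1, the gene that led to the choice of the family.

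Among the uptake genes, the receptor and the endosomal iron pump fell while the endosomal reductase did not. TFRC (chromosome 3, 195739382 to 195809024, minus strand), the transferrin receptor whose 4 hairpins are printed above, stood at 607.3 and 558.0 CPM in the controls and at 300.5 and 306.0 CPM after knockdown. Both control values were well above both knockdown values. The mean fell from 583 ± 34.9 to 303 ± 3.91 CPM, 52.0% of control (log2 fold change -0.94, SE 0.04). FTH1 and TFRC thus fell together, FTH1 by more. The ratio of TFRC to FTH1 reads was 0.518 and 0.464 in the controls and 0.748 and 0.762 after knockdown, a mean 1.54 times higher. It too rests on FTH1, which led to the choice, and is a description.

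SLC11A2 (chromosome 12, 51373184 to 51422349, minus strand), also called DMT1, moves ferrous iron out of the endosome. It stood at 104.0 and 101.2 CPM in the controls and at 55.6 and 58.9 CPM after knockdown. The groups were far apart, with knockdown at 55.8% of control (log2 fold change -0.84, SE 0.05). STEAP3 (chromosome 2, 119981407 to 120023228), the reductase that converts ferric to ferrous iron in endosomes, stood at 275.2 and 288.4 CPM against 309.6 and 308.8 CPM. It was 109.7% of control (log2 fold change 0.13, SE 0.04) and, like NCOA4, lost its call without either KDM1A shRNA library.

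**Figure D2:**
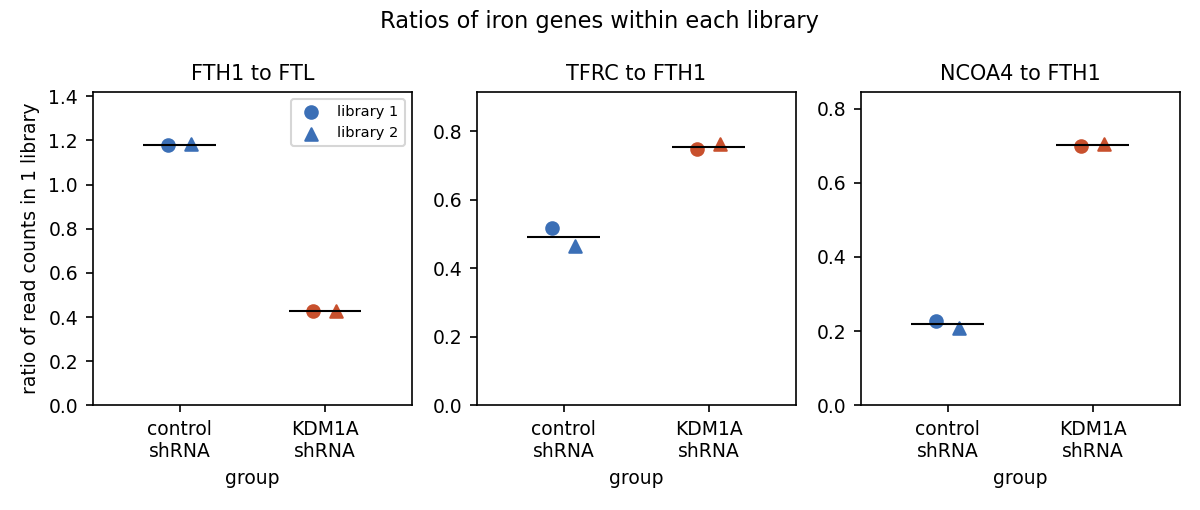
Ratio of the read counts of 2 genes within each library, with 1 point per library and a line at the mean of each group (blue, control shRNA; red, KDM1A shRNA). FTH1 to FTL drops from about 1.18 to about 0.427, while TFRC to FTH1 and NCOA4 to FTH1 are higher in both KDM1A shRNA libraries.

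RefSeq promoter windows of GRCh38.p14, 250 bases before to 50 after a start, were matched for 8 of the 10 members in 13 windows, FTH1 and HMOX1 being the other two. The GC box letters GGGCGG, searched on both strands, were present in a window of each of the 8, and in 45.0% of all 35116 windows. Window 2 of NCOA4, window 2 of IREB2 and windows 2 to 4 of SLC11A2 held none. Members are counted by gene, with any window sufficing, whereas each share counts single windows, so they cannot be compared directly. The same holds for the other letters searched. CCAAT was present for FTL and SLC11A2 (34.6% of all windows), TGACNNNGC for NCOA4 (13.3%) and CACGTG for none (7.26%). ACGTG, which CACGTG contains and which is the core recognised by hypoxia-inducible factors, was present for TFRC and FTL and in 21.4% of all windows. The TFRC promoter is shown as that of the uptake gene with the largest fall. FTL, with the same letters in its window, stayed at 93.5% of control. The capitals mark ACGTG, 88 bases before the start.
TFRC promoter, GRCh38.p14 chr3:196082091-196082340, minus strand: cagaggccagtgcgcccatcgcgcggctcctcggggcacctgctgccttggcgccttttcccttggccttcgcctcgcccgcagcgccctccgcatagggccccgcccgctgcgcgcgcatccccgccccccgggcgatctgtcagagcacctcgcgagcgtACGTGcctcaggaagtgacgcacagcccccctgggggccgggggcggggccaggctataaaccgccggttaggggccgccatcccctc
A match describes the letters only and does not show that a factor binds there.

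The exporter and the haem-degrading enzyme moved the other way. SLC40A1 (chromosome 2, 190425316 to 190448484, minus strand) encodes ferroportin, which carries iron out of cells. Its control reads were 29 and 39 and its knockdown reads 70 and 77, or 1.08 and 1.61 against 2.92 and 2.98 CPM. Both knockdown values were higher, at 219% of the control mean (log2 fold change 1.14, SE 0.23). The transcript was scarce in all 4 libraries, and its log2 fold change lay between 0.88 and 1.44 with 1 library left out. HMOX1 (chromosome 22, 35776354 to 35790207), heme oxygenase 1, which frees iron from haem, stood at 13.5 and 14.2 CPM in the controls and 23.4 and 23.1 CPM after knockdown. It was higher in both knockdown libraries, at 167.6% of control (log2 fold change 0.75, SE 0.08).

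Macrophages express both SLC40A1 and HMOX1 strongly, so their markers were read in the same libraries. Of 6 leukocyte and macrophage markers, 3 were above 3 reads in every library, and their summed level was 181 and 184 CPM in the controls and 133 and 131 CPM after knockdown. CD68, a lysosomal protein gene that other cells also express, made up most of it. Without CD68 the sum was 6.95 and 8.57 CPM against 8.43 and 9.11 CPM. The pan-leukocyte gene PTPRC had 2 to 4 reads and the macrophage gene CD163 0 or 1 read per library. CSF1R was higher after knockdown (43 and 50 against 131 and 145 reads) and CD14 lower (136 and 152 against 67 and 85), and their part in the SLC40A1 and HMOX1 values was not tested. Of the erythroid markers, HBB and ALAS2 had 0 reads throughout, and HBA1 had at most 3.

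The iron regulatory proteins were both lower, ACO1 by more than IREB2. ACO1 (chromosome 9, 32384601 to 32454767), iron regulatory protein 1, which serves as cytosolic aconitase when it holds an iron-sulfur cluster, stood at 271.4 and 269.2 CPM in the controls and 188.3 and 200 CPM after knockdown. The groups were well separated, with knockdown at 71.8% of control (log2 fold change -0.48, SE 0.04). IREB2 (chromosome 15, 78729773 to 78793795), iron regulatory protein 2, which is degraded when iron is plentiful, stood at 136.6 and 132.6 CPM against 120.7 and 123.3 CPM. It was 90.6% of control (log2 fold change -0.14, SE 0.04) and lost its call without either KDM1A shRNA library. FBXL5, the iron-sensing ligase subunit that marks IREB2 for degradation, was at 97.0% of control and did not pass the threshold (edgeR adjusted p = 0.36).

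In the fit over 14012 genes, 4 members were called higher and 6 lower at an edgeR adjusted p under 0.05. Across all genes tested 27.3% were called higher, 28.8% lower and 56.1% in either direction. The groups did not overlap in any of the 10 members, as in 77.7% of all genes tested. The members were chosen from this very contrast, so nothing is read from their counts. Without KDM1A shRNA library 1, and likewise without library 2, the counts were 2 higher and 4 lower. The 4 members that lost their calls (FTL, NCOA4, STEAP3 and IREB2) were those that differed least. The control pair differed more within itself (chi-square of counts per degree of freedom 3.97) than the KDM1A shRNA pair (1.6). A fit without 1 KDM1A shRNA library takes its spread from the controls alone. FTL was still at -0.0945 without KDM1A shRNA library 1 and at -0.0952 without library 2. The median log2 fold change of the 10 was -0.12, against 0.00 (-0.005) over all genes tested. The members ranged from -1.57 for FTH1 to 1.14 for SLC40A1, and they did not move as a block.

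**Figure D3:**
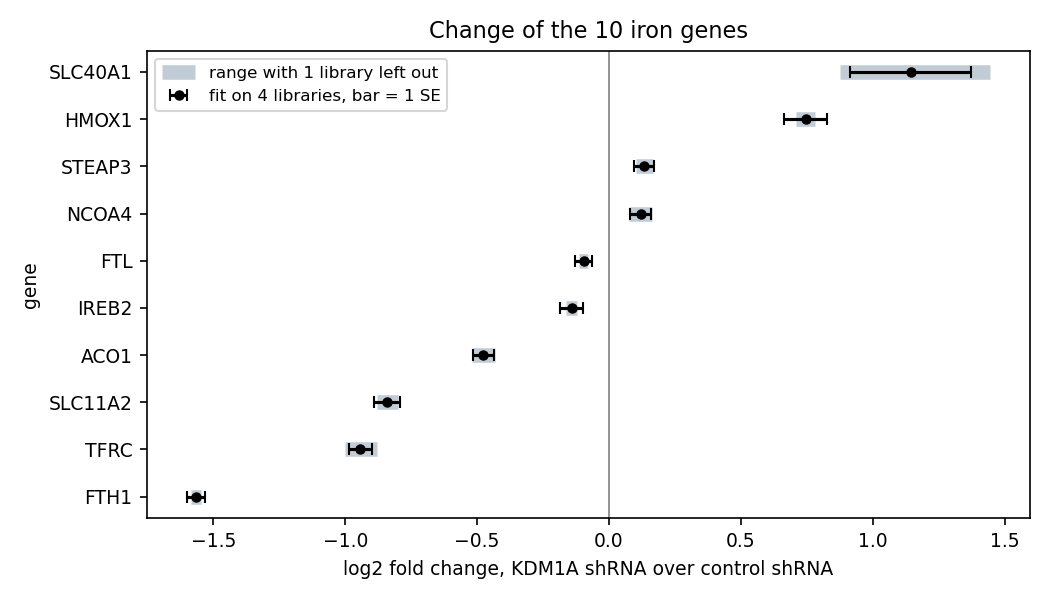
Log2 fold change of each iron gene, KDM1A shRNA over control shRNA (x axis), with bars of 1 SE and a grey band for the range over fits with 1 library left out. FTH1, TFRC, SLC11A2 and ACO1 lie to the left, HMOX1 and SLC40A1 to the right, and FTL, IREB2, NCOA4 and STEAP3 within 0.15 of 0.

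Levels of different genes were compared per kilobase of canonical transcript. In the controls FTL (1155 ± 18.5 CPM per kilobase) was above FTH1 (988 ± 17.6) by counted reads, and the ferritin chains were the most abundant members by far. Reads set aside for lack of a unique place may lower FTH1 and FTL unequally. This was not tested, so their true order in the controls is not known. They were followed by TFRC (116 ± 6.96), NCOA4 (74.9 ± 3.17), STEAP3 (66.2 ± 2.19), ACO1 (36.3 ± 0.209), SLC11A2 (24.8 ± 0.479), IREB2 (21.3 ± 0.447), HMOX1 (8.93 ± 0.319) and SLC40A1 (0.404 ± 0.111). After knockdown FTL (1080 ± 1.22) stood well above FTH1 (334 ± 0.235). TFRC (60.5 ± 0.776) dropped from rank 3 to rank 5, below NCOA4 (81.4 ± 0.388) and STEAP3 (72.6 ± 0.133). SLC11A2 (13.9 ± 0.558) went from rank 7 to rank 9, below IREB2 (19.3 ± 0.291) and HMOX1 (14.95 ± 0.127). The library values of no neighbours in either order overlapped, although the order rests on 1 transcript length per gene.

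The genes most like FTH1 were sought among 744 others whose average log2 CPM reached 8, by the distance between their 4 log2 CPM values after each gene's mean was removed. The nearest was SAA1, a serum amyloid A gene, at a distance of 0.0669, with 32.3% of its control level after knockdown. NAMPT, the rate-limiting enzyme of NAD salvage, followed at 0.0801 and stood at 31.99% of control. TXNIP, which inhibits thioredoxin (0.160, 37.3% of control), the complement component C3 (0.259, 40.1%) and the apoptosis inhibitor BIRC3 (0.326, 42.2%) came next. With 4 libraries in 2 groups, this likeness mostly reflects the size of the fall.

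The other genes of iron handling were split between directions. Of 107 listed genes 96 were tested, of which 33 rose and 27 fell (62.5% called, against 56.1% of all genes tested), with a median log2 fold change of 0.01 against 0.00 (-0.005) over all. Without KDM1A shRNA library 1 the count of higher genes was 21. Changes of 2-fold or more numbered 5 falls and 0 rises among the 96, against 1196 falls and 430 rises among all 14012 genes tested.

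In the lists below, levels are means ± SD (n = 2 each) and values in parentheses with an SE are log2 fold changes. Each list's counts stand against 27.3% of all genes tested called higher, 28.8% lower and 56.1% either way, and no list was tested as a set. Among 11 tested genes of transferrin and other uptake, 5 fell and 2 rose (median -0.15). LCN2, lipocalin 2, which binds iron-carrying siderophores, fell from 143 ± 0.324 to 10.1 ± 0.391 CPM (edgeR adjusted p = 2.0e-15, log2 fold change -3.82, SE 0.06). STEAP4, a metalloreductase of the STEAP3 family, fell to 41.0% of control (-1.28, SE 0.16), and SLC39A8, a zinc transporter that also carries iron and manganese, to 69.7% (-0.52, SE 0.04). Melanotransferrin, listed as MFI2, rose to 122% (0.29, SE 0.05). Of 11 genes of receptor cycling and endosomal release 7 were called higher and 3 lower (90.9% called, median 0.13), most by small amounts. EHD1, which returns receptors from endosomes to the surface, rose from 201 ± 12.5 to 329 ± 8.16 CPM (edgeR adjusted p = 5.8e-09, log2 fold change 0.72, SE 0.04), and the exocyst subunit EXOC6 rose to 149% of control (0.57, SE 0.07). Of the ubiquitin system that removes SLC11A2 protein, the ligase NEDD4L rose (0.31, SE 0.05) and its adaptor NDFIP2 fell (-0.31, SE 0.06). The other adaptor, NDFIP1, rose slightly (109.3% of control, 0.13, SE 0.04), and the ligase NEDD4 did not pass (-0.14, SE 0.06, edgeR adjusted p = 0.081), both named after their values were seen.

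In the list of export, iron chaperones and hepcidin control, 8 of 15 genes were tested, of which 3 fell and 2 rose (median -0.18). Ceruloplasmin, CP, the ferroxidase that works with ferroportin, fell from 41.0 ± 4.06 to 9.42 ± 0.553 CPM (edgeR adjusted p = 1.1e-10, log2 fold change -2.13, SE 0.09), opposite to SLC40A1. BMP6, which induces hepcidin in liver, dropped from 238 and 216 control reads to 20 and 21 (log2 fold change -3.42, SE 0.18). Hepcidin itself, HAMP, had 1 read in all. The iron chaperone PCBP2 fell to 81.9% of control (-0.29, SE 0.04), while FLVCR2, a relative of the haem exporter FLVCR1, rose to 149% (0.57, SE 0.06).

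Haem genes were called higher in 6 and lower in 2 of 15 tested (53.3% called, median 0.16). ALAD, an early enzyme of haem synthesis, rose from 32.7 ± 1.23 to 50.2 ± 1.79 CPM (edgeR adjusted p = 9.2e-07, log2 fold change 0.62, SE 0.06). FECH, ferrochelatase, which inserts the iron, rose to 142% of control (0.50, SE 0.07), and UROS, another synthetic enzyme, to 124% (0.31, SE 0.06). The haem-binding protein PGRMC1 fell to 84.8% (-0.24, SE 0.05). Of 31 mitochondrial iron and iron-sulfur cluster genes 12 rose and 7 fell (61.3% called, median 0.11). SLC25A37, the mitochondrial iron importer mitoferrin 1, fell from 78.1 ± 10.3 to 46.2 ± 0.892 CPM (edgeR adjusted p = 8.1e-07, log2 fold change -0.75, SE 0.07), and the ferredoxin reductase FDXR fell to 63.0% of control (-0.67, SE 0.11). The transporter ABCB10, a partner of SLC25A37, rose (0.39, SE 0.06), as did NDOR1 of cytosolic cluster assembly (0.39, SE 0.07).

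Other messages known for iron responsive elements did not share a direction. EPAS1, hypoxia-inducible factor 2 alpha, fell from 114 ± 7.02 to 58.1 ± 2.37 CPM (edgeR adjusted p = 2.4e-09, log2 fold change -0.97, SE 0.06). CDC42BPA, a kinase, rose to 133% of control (0.41, SE 0.04). Of 5 ferritin turnover genes 3 rose and 1 fell. RB1CC1, an autophagy initiator, fell to 72.7% of control (-0.46, SE 0.05), while HERC2, which marks NCOA4 for degradation (113%, 0.18, SE 0.07), the autophagy receptor TAX1BP1 (109%, 0.12, SE 0.04) and the autophagy factor ATG16L1 (115%, 0.20, SE 0.07) rose slightly. The calls of those 3 were lost without either KDM1A shRNA library, with log2 fold changes still between 0.11 and 0.22. Those of HERC2 (0.06) and ATG16L1 (0.13) were also lost without control library 2. Without control library 1 HERC2 stood at 0.30.

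Of 10 genes listed as transcription factors of ferritin or HMOX1, 5 were called lower and 0 higher (50% called, against 56.1% of all genes tested, median -0.16). The list includes KEAP1, a regulator of NFE2L2 and not itself a transcription factor, which was not called. BACH1, which represses HMOX1 and ferritin genes, fell from 122 ± 6.63 to 69.4 ± 1.35 CPM (edgeR adjusted p = 5.8e-09, log2 fold change -0.82, SE 0.05). Its small partner MAFF fell to 52.0% of control (-0.94, SE 0.07), and HIF1A to 79.8% (-0.32, SE 0.03). MYC, known to repress FTH1 and to raise IREB2, fell to 82.5% (-0.28, SE 0.04).

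**Figure D4:**
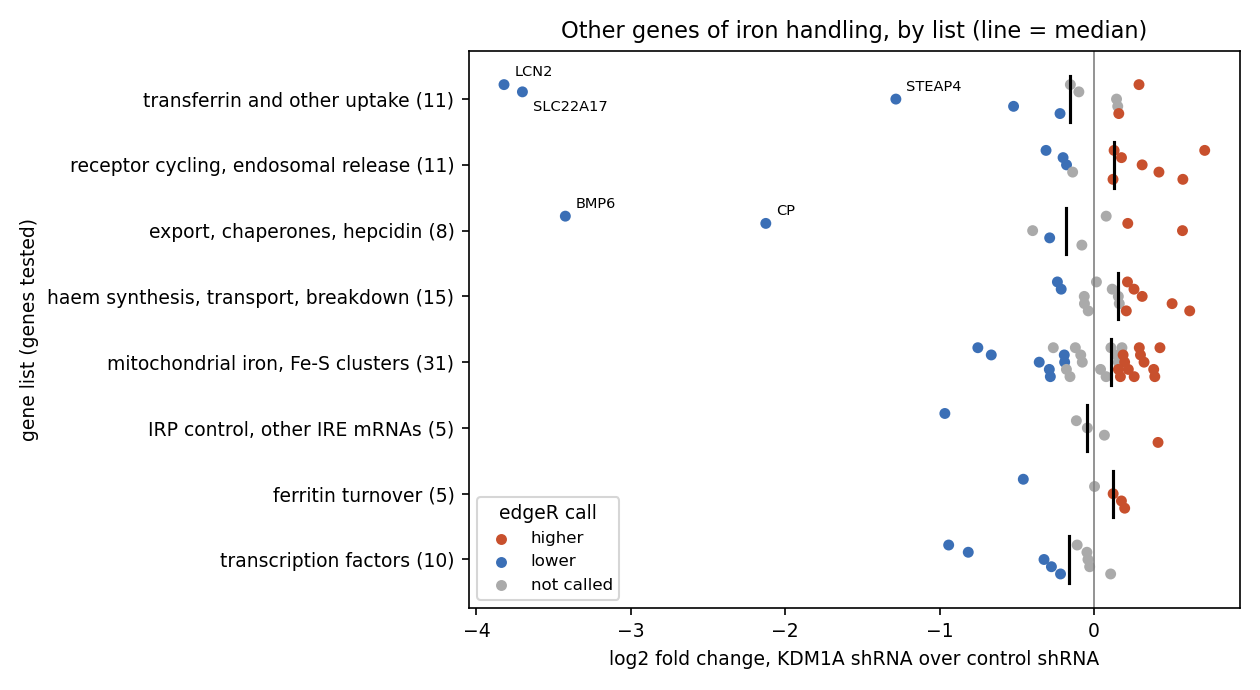
Log2 fold change, KDM1A shRNA over control shRNA (x axis), of each tested gene in 8 lists of other iron genes (y axis, number tested in brackets), coloured by edgeR call, with a line at each list's median and names for changes beyond 1.2. Most genes lie within 1 of 0, and LCN2, SLC22A17, BMP6, CP and STEAP4 stand apart on the left. SLC22A17 rests on few reads, 15 and 28 in the controls against 1 and 2 after knockdown (SE 0.66).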

How the data were processed

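Each library has 1 deposited file, in which the authors give raw counts of reads for every gene symbol. Per the submitters' processing notes, the tools were HTSeq, TopHat2 2.0.8b and CASAVA 1.8.2, with genome build hg19. The annotation release and strand setting are not given in the sources used here. The 5 HTSeq summary lines name no gene and entered neither library sizes nor tests. Besides alignments that were not unique, 8.21% to 8.61% of all counts fell in no gene and 0.587% to 0.593% were ambiguous. The test on counts was that of edgeR 4.0.16 (R 4.3.3, TMM, filterByExpr with a minimum count of 10 and total of 15, quasi-likelihood F-test, group as the only term), with Benjamini-Hochberg adjustment over 14012 genes. SE is the absolute log2 fold change over the square root of F. Levels are TMM-scaled CPM. Ratios were not tested, since with 2 libraries a group the smallest two-sided exact permutation p is 0.333.

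The members and lists were chosen with earlier results of these data known. Because the members came from this contrast, they have no p-values. Named genes are the 10 members, up to 4 genes with the smallest p per list, the 5 genes most like FTH1, marker genes and ferritin copies; SLC22A17 is named in a figure after its value was seen. Some genes of these lists are not reported here. On simulated counts for this comparison (14012 genes, 200 changed) the test recovered 76% of 1.25-fold and 90% of 2-fold changes, with 4 false calls. Far fewer genes changed there than were called in the data (56.1%), so these rates may not hold here. Positions, transcripts and exons are from GENCODE v44lift37 (GRCh37, the build also called hg19) and copies were found with BLAST 2.17.0. Alternatives were RLE, upper-quartile and library-size scaling, limma-voom (limma 3.58.1), DESeq2 1.42.0, filters of at least 1 count or 5 CPM on average, the replicate number as a block, and each library left out.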

Additional observations from a re-analysis of the deposited data

How the results depend on the processing

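FTH1, TFRC, SLC11A2, ACO1 and HMOX1 kept their direction and their call in all 13 alternatives, and SLC40A1 in the 12 in which it was tested, as it was below the mean of 5 CPM. FTH1 lay between -1.59 and -1.55 on the log2 scale. With 1 library left out, 2 to 4 members were higher and 4 to 6 lower, and 21 to 39 other iron genes were higher and 23 to 30 lower. Where leaving out a library leaves 1 in a group, that library is assumed to vary like the others. HERC2 also lost its call with upper-quartile scaling (edgeR adjusted p = 0.066), the 5 CPM filter (0.069) and DESeq2 (0.072), and ATG16L1 in DESeq2 (0.10). With the replicate number as a block, 3978 genes were higher and 4164 lower, and the members again counted 4 higher and 6 lower. The labels do not say whether the number marks a pairing. Deviations of same-numbered libraries correlated at 0.0152, which cannot settle it, since counting error weakens such a correlation. A rescaling that set the median change of 10782 genes to 0, chosen after seeing the data, moved values by 0.02 and ended the HERC2 call (0.058). The cause of these changes was not tested. Low reads limit SLC40A1 most.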

Other observations

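Neighbours within 1 Mb on either side of each member were read after the data had been seen, for the 85.7% of tested genes with a matched GRCh37 position. Around HMOX1 on chromosome 22, 8 of 11 tested neighbours were higher and 3 lower after knockdown, with a median log2 fold change of 0.53 beside 0.75 for HMOX1. They included the apolipoprotein L genes APOL1 (0.53), APOL2 (0.82), APOL3 (0.38) and APOL6 (0.54), the myosin MYH9 (0.67) and the replication helicase subunit MCM5 (0.44). HMGXB4 (-0.29), TOM1 (-0.26) and RBFOX2 (-0.15) were the 3 lower. Around SLC11A2 on chromosome 12, 13 of 19 neighbours were lower and 5 higher, with a median of -0.32 beside -0.84 for SLC11A2. Over all genes tested 27.3% were called higher and 28.8% lower. Around FTH1, 12 of 40 were lower and 11 higher (median -0.07), around TFRC 6 and 6 of 19 (0.01), and around ACO1 4 and 3 of 11 (0.03). Around FTL 21 of 61 were lower and 13 higher (-0.08), around IREB2 5 and 4 of 14 (-0.07), around STEAP3 3 and 2 of 7 (-0.01), around NCOA4 1 and 2 of 6 (0.10) and around SLC40A1 1 and 3 of 11 (0.13). No test was made of any neighbourhood.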
